A study of Mus musculus with 5 samples.

Results

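The genes described here are 35 mouse genes of homologous recombination, the Fanconi anaemia pathway and the replication stress checkpoint. They were taken by symbol from a fixed list and all 35 were found among the 49671 genes of the count table, with the gene now called Mre11 listed as Mre11a. The list was divided by textbook knowledge into 20 proliferation-linked repair genes, 6 damage sensors held to be transcribed throughout the cell cycle, and 9 other repair genes. Members and classes were chosen with earlier results of these data known. RNA-seq libraries came from whole hearts of C57BL6/J mice at postnatal day 2. Charme WT animals carry the intact Charme locus, which makes a long noncoding RNA of cardiac and skeletal muscle, and Charme KO animals carry a PolyA signal inserted into that locus. Each Charme WT library held a pool of 9 hearts (3 pools, WT1 to WT3) and each Charme KO library a pool of 3 hearts (2 pools, KO1 and KO2), so pool size and genotype cannot be told apart, and single animals cannot be resolved.

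Homologous recombination repairs a broken or stalled DNA molecule by copying an intact sister. The MRE11-RAD50-NBN complex finds the break and activates the kinase ATM, nucleases trim the ends, BRCA1-BARD1, PALB2 and BRCA2 prepare the strand for pairing, and helicases and nucleases resolve the joined molecules. At stalled replication forks ATR and its partner ATRIP, with TOPBP1 and CLSPN, activate the kinase CHK1, and the Fanconi anaemia proteins remove crosslinks between the strands. Many of these genes are transcribed mainly in S and G2 phase through E2F sites, and cardiomyocytes of the newborn mouse are leaving the cell cycle around this age.

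The promoters of the members are shown first because E2F sites are the feature that many proliferation-linked repair genes are known to share. RefSeq promoter windows on GRCm38.p6, from 250 bases before to 50 bases after a start, were matched for 28 of the 35 genes (29 windows). The E2F core was searched as TTCCCGC on both strands of the window. The forms with another centre, written TTGGCGC on one strand, and with a central CG, written TTCGCGC, were searched the same way, and Topbp1 held overlapping matches of different forms. An E2F core was present in 15 of the 29 windows (51.7%), against 8.07% of all 32851 promoters and 13.8% of the 14061 windows of genes tested for expression. By class it was found in 10 of 16 proliferation-linked windows (62.5%), 4 of 9 windows of other repair genes (44.4%) and 1 of 4 sensor windows. In the 100 bases before the start alone the share was 6.9% of member windows and 0 of the 16 proliferation-linked ones, against 3.16% of all promoters and 5.33% of windows of genes tested. The 17 matches lay between 208 bases before and 44 bases after the start, and 7 of them within 50 bases of it. The sites below were chosen to show 6 proliferation-linked genes with a core within 50 bases of the start, and the one sensor with a core. Each is 29 bases, written 5′ to 3′ on the strand of the gene, with the core in capitals as it reads on that strand.
Brca1, chr11:101551917-101551945, minus strand: gctagcgctagGCGCCAAgcggccggttt
Fanci, chr7:79392345-79392373, plus strand: cgtggagtagaGCGGGAAttttggaagga
Chek1, chr9:36726609-36726637, minus strand: agcatgacgcaagcaggttttgGCGGGAA
Rad51ap1, chr6:126939558-126939586, minus strand: tctggttttcgGCGGGAAttgaaaccgcc
Clspn, chr4:126556990-126557018, plus strand: accgcgtctggGCGCGAAagctcgaactt
Brip1, chr11:86201180-86201208, minus strand: aggggcgggagGCGCGAAttcatctgtgt
Atm, chr9:53536639-53536667, minus strand: tagagccggaaGCGGGAAggcgtgcgtac

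The core of Brip1 began 4 bases before the start, and those of Rad51ap1, Atm, Fanci, Brca1, Clspn and Chek1 began 13, 16, 19, 22, 22 and 44 bases after it, inside the transcribed region. Blm and Fanca held CCAAT boxes but none of these E2F cores, which says only that these letters are not in those windows. CCAAT boxes, searched as CCAAT on both strands, were in 58.6% of member windows against 37.4% of all promoters. The CHR core TTTGAA, known from genes of mitosis, was in 6.9% of member windows, Bard1 and Eme1, against 17.9% of all promoters and 54.5% of windows of a kinetochore and spindle list. Members with and without an E2F core had overlapping differences in expression. The median log2 fold change of Charme KO over Charme WT was 0.65 for the 15 with a core and 0.43 for the 12 tested members without one, and within the proliferation-linked class it was 0.81 and 0.80.

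Counts on genes ranged from 16721055 to 21646378 per pool. The Charme RNA was counted 810, 183 and 276 times in the WT pools and 57 and 79 times in the KO pools, in the direction of the labels. All 12 cardiomyocyte markers had counts in every pool, and their summed level, in CPM (counts scaled to the normalized library size), was 55404 to 67501 in Charme WT and 61851 to 68768 in Charme KO. Of these, Myh7, Myl7 and Nppa lay above every WT pool in both KO pools (log2 fold changes 0.68, 0.87 and 0.82) and Myh6 below (-0.65), with 0 called. The KO pools stood apart from each other. In KO1, 21.1% of counts fell on mitochondrial genes, against 9.68% to 11.1% in the other 4 pools. Salivary gland markers summed to 25519.5 CPM in KO2 and 347 CPM in KO1, against 0.566 to 3.69 CPM in Charme WT. For this reason the results below are given by pool and also without each Charme KO pool. The erythroid list, of which 11 genes were in the table, summed to 871 to 1255 CPM in Charme WT and 1620.1 to 2285 CPM in Charme KO, with both KO pools above every WT pool for 6 of the 11 and 3 called higher. Among its defining genes Epb42 had no count in WT1 and Rhag none in KO1. Erythroid RNA was thus higher in Charme KO, as were many members. Skeletal muscle markers summed to 42.6 to 96.7 CPM in Charme WT and 71.1 to 152 CPM in Charme KO, with 6 of 12 above every WT pool, 1 of them called (Myh8, log2 fold change 2.91), and 3 or 4 at 0 in each pool. Endothelial markers summed to 1151 to 1413 CPM in Charme WT and 993 to 1165 CPM in Charme KO, with 4 of 10 below every WT pool, 0 called and 0 at 0. Macrophage markers summed to 126 to 202 CPM and 157 to 256 CPM, with 1 of 10 above and called (Mrc1, log2 fold change 1.03), 1 below and 0 at 0. Of all genes tested, both KO pools lay above every WT pool for 17.8% and below for 18.2%, and 2.05% were called. The part of these cell types in the members' differences was not tested.

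The repair genes linked to proliferation were mostly higher in the KO pools, while sensors and other repair genes lay closer to Charme WT. Their summed level was 148, 173 and 146 CPM in WT1, WT2 and WT3, 321 CPM in KO1 and 187 CPM in KO2. For 14 of the 20 both KO pools lay above every WT pool, against 17.8% of all genes tested. The log2 fold change was above 0 for 18 of the 20, against 51.8% of all genes tested, with a median of 0.78. Since the classes were set with earlier results of these data known, these shares are a description and not independent support. No member passed the test, whose calls needed an adjusted p under 0.1 and, in mean, at least 1 FPKM (fragments scaled to exon length and library size) in either genotype. With edgeR's quasi-likelihood test and Benjamini-Hochberg adjustment over 14880 genes, 0 of the 34 tested members were called, where 2.05% of all genes were called and 1.53% were called higher. The unadjusted p was under 0.05 for 15 members, 14 of them proliferation-linked, against 18.6% of all genes. The likelihood ratio test called 4 members, Brca1, Blm, Fancd2 and Fanci, where 3.92% of all genes were called higher, and DESeq2 called these and Chek1, where 4.8% were called higher. Palb2 and Rad54b also had an adjusted p under 0.1 in the likelihood ratio test. They were not called because their mean stayed under 1 FPKM in both genotypes. In whole-heart RNA, a change in the number of cells of a type and a change in RNA per cell cannot be told apart.

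**Figure D1:**
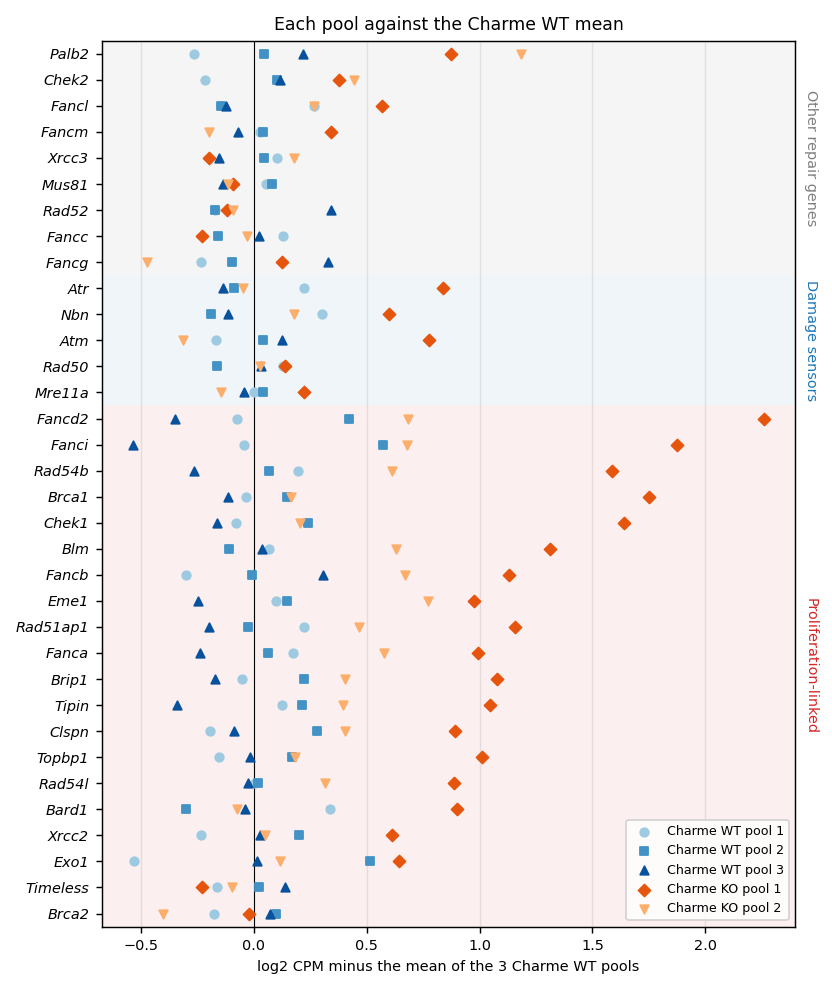
Level of each of the 34 tested genes in each pool, as log2 CPM minus the mean of the 3 WT pools (x axis), by class and ordered by fold change. KO1 was the highest pool for 18 of the 20 proliferation-linked genes, and KO2 lay above every WT pool for 14 of them.

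Measured as log2 CPM minus the Charme WT mean, the proliferation-linked class had a median of -0.05, 0.15 and -0.10 in the WT pools, 1.03 in KO1 and 0.40 in KO2. The 5 tested sensors had medians of 0.13, -0.09 and -0.04 in Charme WT, 0.60 in KO1 and -0.05 in KO2. Sensors were thus above Charme WT in KO1 alone. The gap between the medians of both classes was -0.17, 0.23 and -0.06 in the WT pools and 0.43 and 0.44 in the KO pools. As a ratio of summed CPM, proliferation-linked genes over sensors gave 1.32, 1.88 and 1.52 in Charme WT, and 2.26 and 1.85 in Charme KO, so that KO2 lay inside the Charme WT range on that measure. The 9 other repair genes had medians of 0.03, 0.04 and 0.03 in Charme WT and of 0.12 and -0.03 in Charme KO. No test between the classes was made, and the median over all tested genes was 0.02 for the fitted log2 fold change.

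**Figure D2:**
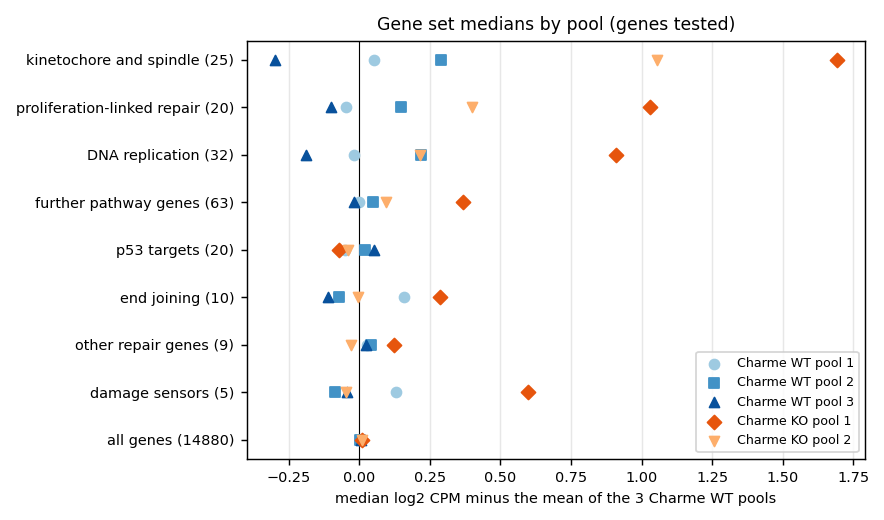
Median over the tested genes of each list of log2 CPM minus the mean of the 3 WT pools (x axis), 1 symbol per pool, with the number of genes tested in brackets. The medians of proliferation-linked repair genes in both KO pools, 1.03 and 0.40, lie above those of the 3 WT pools, while the sensors do so in KO1 alone.

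Levels per length differed widely between members in Charme WT hearts. The length was that of all annotated exons of a gene together, 23629 bases for Atr, and the order depends on it. Nbn, the signalling subunit of the MRE11-RAD50-NBN complex, was the most abundant at 13.7 ± 2.65 FPKM (SD, n = 3). Mus81, a nuclease subunit that cuts joined molecules, was at 9.70 ± 0.777 FPKM and Tipin, a fork protection factor, at 9.13 ± 1.77 FPKM. Rad50, Topbp1, Fancl, Mre11a and Timeless followed, between 4.68 and 2.19 FPKM. The lowest were Fanca at 0.448, Rad54b at 0.301 and Palb2 at 0.196 FPKM. The place of Rad54b is uncertain, since it shares 2068 exon bases on the same strand with Fsbp. Most steps in this order were small. The ranges over the 3 WT pools overlapped for 26 of the 33 pairs of neighbours, and the neighbours that did not overlap included Nbn and Mus81, Tipin and Rad50, and Rad54b and Palb2. The 34 tested members had between 24 and 1080 counts per pool, and 9 of them stayed under a mean of 1 FPKM in both genotypes and so could not be called.

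**Figure D3:**
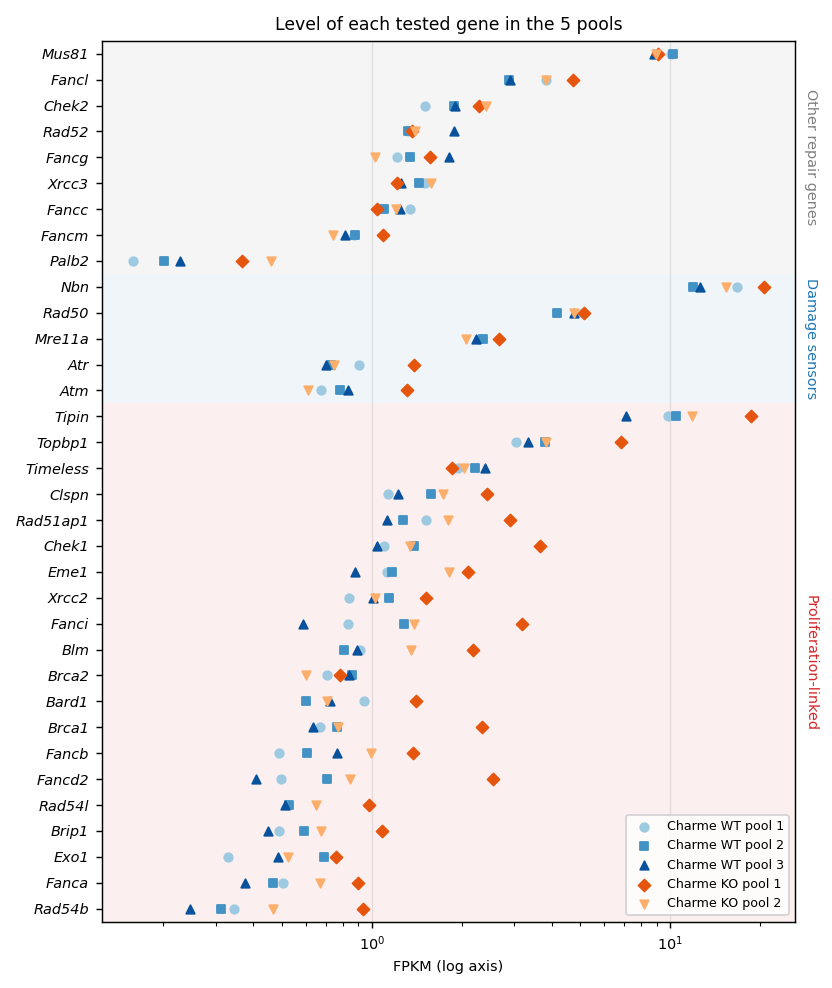
FPKM of the 34 tested members in each of the 5 pools (log axis), grouped by class and ordered by level. Nbn, Mus81 and Tipin are the most abundant, and the diamonds of KO1 stand to the right of the Charme WT symbols for most of the proliferation-linked genes.

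Among the genes that prepare the strand, Brca1 stood apart from Brca2 (gene positions are those of GENCODE M21 on GRCm38). Brca1, which with Bard1 forms a ubiquitin ligase that promotes resection of DNA ends (chr11:101488764-101551955), had 0.672, 0.763 and 0.634 FPKM in Charme WT and 2.34 and 0.772 FPKM in Charme KO. KO1 was far above the other pools, and KO2 was just above the highest Charme WT pool. Its log2 fold change was 1.16 with a standard error of 0.40 (edgeR quasi-likelihood adjusted p = 0.193), and 0.17 without KO1. Bard1 had 0.944, 0.600 and 0.724 FPKM in Charme WT and 1.40 and 0.705 FPKM in Charme KO, so that KO2 was inside the Charme WT range. Brca2, which acts on the resected single strand (chr5:150522630-150570329), had 0.705, 0.855 and 0.838 FPKM in Charme WT and 0.784 and 0.601 FPKM in Charme KO. It had the lowest log2 fold change of all members, -0.21 with a standard error of 0.25 (edgeR quasi-likelihood adjusted p = 0.662). Palb2, the bridge between BRCA1 and BRCA2 (chr7:122107262-122132985), was counted 24, 26 and 33 times in Charme WT and 38 and 75 times in Charme KO. That gave 0.159, 0.200 and 0.227 FPKM against 0.367 and 0.458 FPKM, without overlap between the genotypes. Its log2 fold change was 1.09 with a standard error of 0.35 (edgeR quasi-likelihood adjusted p = 0.167), and between 0.90 and 1.23 with any pool left out.

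The ratio of Brca2 to Palb2 FPKM was 4.44, 4.26 and 3.69 in Charme WT and 2.14 and 1.31 in Charme KO, with no overlap. The Brca1 to Bard1 ratio was 0.711, 1.27 and 0.876 in Charme WT and 1.67 and 1.10 in Charme KO, with overlap. These ratios were not tested, and that of Palb2 rests on few counts.

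The genes of strand exchange were led by Rad54b and Rad51ap1. Rad54b, a DNA translocase of strand exchange, had 0.344, 0.313 and 0.245 FPKM in Charme WT and 0.931 and 0.465 FPKM in Charme KO, both above every WT pool. Its log2 fold change was 1.18 with a standard error of 0.39 (edgeR quasi-likelihood adjusted p = 0.178), and it shares 2068 exon bases on the same strand with Fsbp, so reads of these genes may be uncertain. Rad51ap1, which stimulates strand pairing, had 1.51, 1.27 and 1.12 FPKM in Charme WT and 2.91 and 1.80 FPKM in Charme KO, with a log2 fold change of 0.84. Rad54l, the paralogue of Rad54b, was nearly level across Charme WT at 0.523, 0.529 and 0.512 FPKM and stood at 0.975 and 0.652 FPKM in Charme KO. For all 3 genes both KO pools were above every WT pool. Xrcc2 had a log2 fold change of 0.34, and Xrcc3 had 0.01 with a standard error of 0.30. Rad52, an annealing protein, had 1.32, 1.32 and 1.89 FPKM in Charme WT and 1.37 and 1.39 FPKM in Charme KO, and its log2 fold change was -0.13. These last 3 overlapped between genotypes.

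Of the genes that process ends and junctions, Blm came nearest to the threshold of all members. Blm, the helicase lost in Bloom syndrome (chr7:80454733-80535119), had 0.913, 0.806 and 0.893 FPKM in Charme WT and 2.18 and 1.35 FPKM in Charme KO. The spread within Charme WT was small and both KO pools lay above it. Its log2 fold change was 1.011 with a standard error of 0.26 (edgeR quasi-likelihood adjusted p = 0.119), and it was 0.64 without KO1. It was the single member called when trends on length and GC content were removed (edgeR quasi-likelihood adjusted p = 0.0939), where 1.52% of all genes were called higher. Eme1 and Mus81, which form 1 nuclease, differed from each other. Eme1 had 1.13, 1.17 and 0.879 FPKM in Charme WT and 2.10 and 1.82 FPKM in Charme KO, a log2 fold change of 0.88 with a standard error of 0.30. Mus81 had 10.05, 10.2 and 8.81 FPKM in Charme WT and 9.08 and 8.95 FPKM in Charme KO, a log2 fold change of -0.11 with a standard error of 0.18. The Eme1 to Mus81 ratio was thus 0.112, 0.114 and 0.0998 in Charme WT and 0.232 and 0.203 in Charme KO, without overlap and with KO2 close to KO1. Exo1, a nuclease that extends resection, varied from 0.329 to 0.692 FPKM within Charme WT and had 0.757 and 0.522 FPKM in Charme KO, with overlap.

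The Fanconi anaemia pathway held the largest differences. Fancd2 and Fanci form the clamp that is ubiquitinated at crosslinks. Fancd2 (chr6:113531682-113597017) had 0.496, 0.706 and 0.408 FPKM in Charme WT and 2.55 and 0.847 FPKM in Charme KO. Its log2 fold change of 1.65, with a standard error of 0.43, was the highest of all members (edgeR quasi-likelihood adjusted p = 0.121). Fanci (chr7:79391929-79450264) had 0.833, 1.28 and 0.587 FPKM in Charme WT and 3.19 and 1.38 FPKM in Charme KO, and its log2 fold change was 1.33 with a standard error of 0.41 (edgeR quasi-likelihood adjusted p = 0.156). In both genes KO2 lay above WT2, the highest of the WT pools, and well below KO1. Without KO1 the log2 fold changes were 0.67 for Fancd2 and 0.63 for Fanci, and without KO2 they were 2.25 and 1.83. The Fanci to Fancd2 ratio stayed between 1.25 and 1.82 in the 5 pools, with KO2, at 1.63, inside the Charme WT range and KO1 below it.

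The core complex that ubiquitinates this clamp was mixed. Fanca had 0.504, 0.465 and 0.375 FPKM in Charme WT and 0.898 and 0.670 FPKM in Charme KO, and Fancb had 0.488, 0.607 and 0.763 FPKM against 1.38 and 0.992 FPKM. Both genes lay above Charme WT in both KO pools, with log2 fold changes of 0.80 and 0.92. Brip1, a helicase that binds BRCA1, did the same with a log2 fold change of 0.77. Fancl, the ubiquitin ligase of the core complex, had 3.83, 2.87 and 2.91 FPKM in Charme WT and 4.73 and 3.83 FPKM in Charme KO, with a log2 fold change of 0.41 and KO2 level with WT1. Fancc, Fancg and Fancm overlapped between genotypes, with log2 fold changes of -0.13, -0.19 and 0.09. Fancg, which had the lowest value among the other repair genes, was at 1.22, 1.34 and 1.81 FPKM in Charme WT and 1.57 and 1.03 FPKM in Charme KO (edgeR quasi-likelihood adjusted p = 0.778).

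In the replication checkpoint, Tipin and Topbp1 were higher in both KO pools, unevenly between them, while Timeless was not. Tipin (chr9:64281581-64305424) had 9.82, 10.4 and 7.12 FPKM in Charme WT and 18.6 and 11.8 FPKM in Charme KO, a log2 fold change of 0.74 with a standard error of 0.26 (edgeR quasi-likelihood adjusted p = 0.195). Once trends on length and GC content were removed, this value was 0.17. Its partner Timeless (chr10:128232065-128252941) had 1.95, 2.21 and 2.40 FPKM in Charme WT and 1.85 and 2.04 FPKM in Charme KO, a log2 fold change of -0.17 with a standard error of 0.23. The Timeless to Tipin ratio, without that correction, was 0.198, 0.212 and 0.337 in Charme WT. In Charme KO it was 0.0994 and 0.172, both lower than in any Charme WT pool. With the correction the log2 fold change of Timeless changed sign and lay closer to that of Tipin. The lower ratio may thus depend in part on trends with length and GC content, which was not tested. Topbp1, the activator of ATR (chr9:103305215-103350428), had 3.03, 3.81 and 3.34 FPKM in Charme WT and 6.82 and 3.84 FPKM in Charme KO. KO2 exceeded WT2 by little, and the log2 fold change of 0.65 (edgeR quasi-likelihood adjusted p = 0.216) was 0.18 without KO1. Chek1, the kinase that halts cells with stalled forks, had 1.10, 1.38 and 1.04 FPKM in Charme WT and 3.67 and 1.34 FPKM in Charme KO. Here KO2 was inside the Charme WT range, and the log2 fold change of 1.08 was 0.20 without KO1. Clspn, the adaptor between ATR and CHK1, had 1.14, 1.58 and 1.22 FPKM in Charme WT and 2.43 and 1.73 FPKM in Charme KO, with a log2 fold change of 0.66 and no overlap.

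The damage sensors had log2 fold changes above 0 for all 5 tested genes, against 51.8% of all genes, and for 0 of them did both KO pools exceed every WT pool, against 17.8% of all genes, shares that 5 genes cannot resolve. Nbn (chr4:15957925-15992589) had 16.8, 11.9 and 12.5 FPKM in Charme WT and 20.6 and 15.4 FPKM in Charme KO, a log2 fold change of 0.39 with a standard error of 0.22 (edgeR quasi-likelihood adjusted p = 0.370). Rad50, which tethers DNA ends, had 5.10, 4.16 and 4.77 FPKM in Charme WT and 5.13 and 4.75 FPKM in Charme KO, a log2 fold change of 0.08 with a standard error of 0.20. Mre11a, the nuclease of the complex, had 2.29, 2.36 and 2.23 FPKM in Charme WT and 2.68 and 2.07 FPKM in Charme KO, a log2 fold change of 0.05 with a standard error of 0.22. The KO pools of Mre11a lay on either side of Charme WT. The kinases Atm and Atr were both high in KO1 alone. Atm had 0.676, 0.783 and 0.832 FPKM in Charme WT and 1.31 and 0.611 FPKM in Charme KO, so that its KO pools were the highest and the lowest of the 5. Atr had 0.902, 0.728 and 0.704 FPKM in Charme WT and 1.39 and 0.749 FPKM in Charme KO. It had the highest log2 fold change of the sensors, 0.45 with a standard error of 0.27 (edgeR quasi-likelihood adjusted p = 0.396), and 178 of its exon bases are shared with Gm24004. Without KO1 the values were -0.32 for Atm and -0.06 for Atr. With the length and GC correction the median of the sensors was 0.04, against 0.31 in the fit as planned. The median of the proliferation-linked class with this correction is not given here, so the classes were not compared under it.

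Atrip, the partner of ATR, had no count in 4 pools and 1 count in KO1 and was not tested. A count of 0 allows up to 0.134 to 0.170 CPM in these 4 pools, for counting error only. It shares 1147 exon bases on the same strand with Trex1, and how its reads were assigned was not tested. Chek2, the effector kinase of ATM, and Palb2 were the other repair genes in which both KO pools exceeded every WT pool. These are 2 of 9, against 17.8% of all genes tested, a share that 9 genes cannot resolve. Chek2 had 1.505, 1.89 and 1.90 FPKM in Charme WT and 2.29 and 2.40 FPKM in Charme KO, a log2 fold change of 0.41 with a standard error of 0.27 (edgeR quasi-likelihood adjusted p = 0.418).

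**Figure D4:**
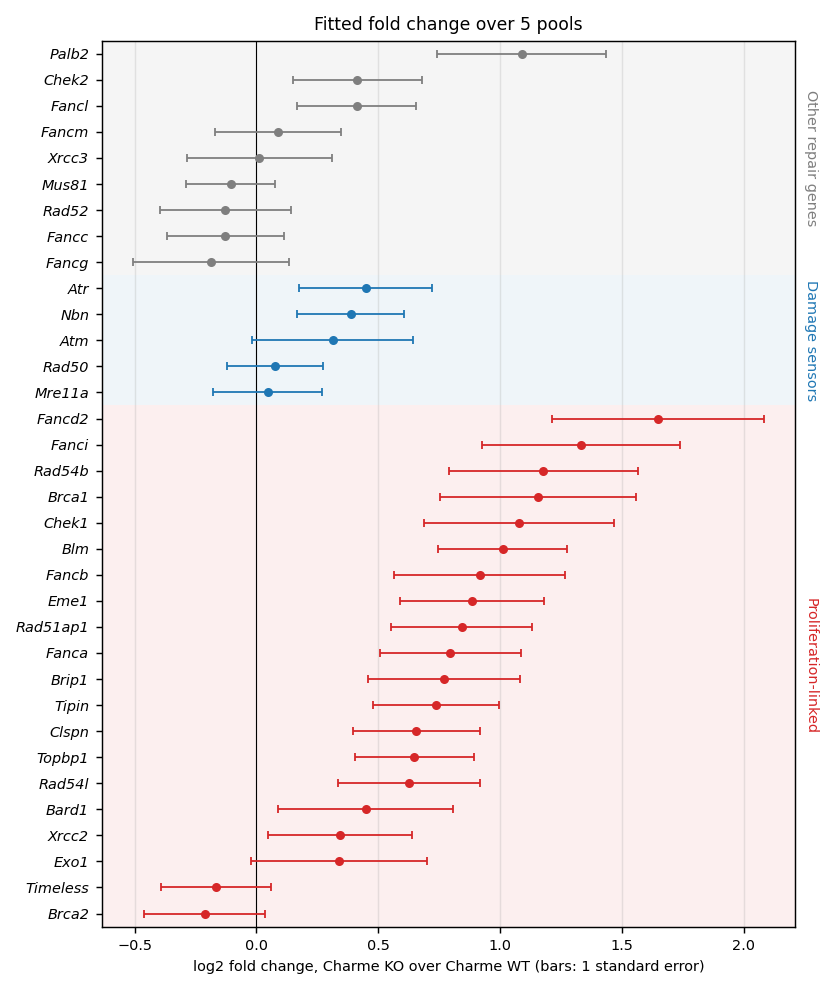
Fitted log2 fold change of Charme KO over Charme WT for the 34 tested members (x axis), with bars of 1 standard error, by class. Fancd2 has the highest value, 1.65, and Brca2 the lowest, -0.21, and the sensors lie between 0.05 and 0.45.

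The KO pools disagreed in size more than in direction for the proliferation-linked genes. KO1 was further above the Charme WT mean than KO2 in 28 of 34 members, against 49.4% of all genes tested. The fits without KO1 or without KO2 leave a single KO pool, so their calls carry no spread between KO pools. Fitted without KO2, 16 members were called, 13 proliferation-linked and 3 sensors (Atm, Atr and Nbn), where 16.1% of all genes were called higher. Fitted without KO1, edgeR's quasi-likelihood test called 0 members, where 3.06% of all genes were called higher. The lowest adjusted p of a member was then 0.129, and 23 members had a log2 fold change above 0 and 11 below 0. The median of the proliferation-linked class was 0.39 without KO1 and 1.012 without KO2, and that of the sensors was -0.06 and 0.57. The highest values with KO2 as the single KO pool were 1.23 for Palb2 and 0.78 for Eme1, which had 0.90 and 0.99 with KO1. Brca1, Fancd2 and Chek1 differed most between these fits, with 0.17, 0.67 and 0.20 from KO2 and 1.76, 2.25 and 1.64 from KO1. The high mitochondrial share of KO1 and the salivary RNA of KO2 moved with these differences, and their part was not tested. A fit without mitochondrial and salivary genes called 0 members, as did the planned fit, so it cannot decide on that part.

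**Figure D5:**
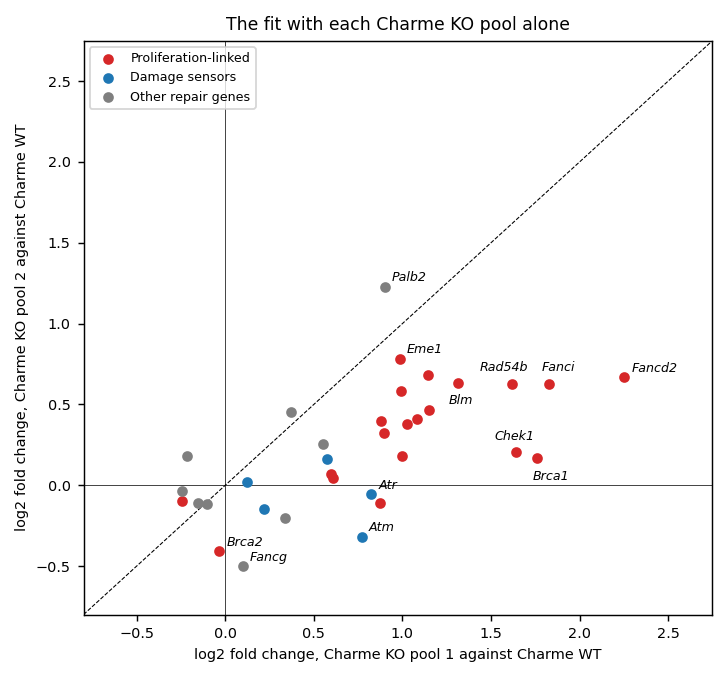
Log2 fold change of each tested member from the fit with KO1 alone (x axis) and with KO2 alone (y axis), against the same 3 WT pools, with a dashed line of equal values. Most proliferation-linked genes lie below the line and above 0 on both axes, while Atm and Atr lie above 0 for KO1 and below 0 for KO2.

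Other genes of the same pathways were read from a list of 63, all of them tested, which includes the RPA subunits and the 9-1-1 clamp. By edgeR's quasi-likelihood test 2 of them were called, both higher in Charme KO, and 0 were called lower, where 1.53% and 0.524% of all genes were called. Ube2t, the ubiquitin-conjugating enzyme that works with FANCL, had 1.86, 2.26 and 1.97 FPKM in Charme WT and 5.85 and 3.33 FPKM in Charme KO, and rose by a log2 fold change of 1.17 with a standard error of 0.27 (edgeR quasi-likelihood adjusted p = 0.0863). Fignl1, an ATPase of homologous recombination, had 2.29, 2.702 and 2.14 FPKM in Charme WT and 7.13 and 3.92 FPKM in Charme KO, and rose by 1.21 with a standard error of 0.27 (edgeR quasi-likelihood adjusted p = 0.0808). Neither gene was called in 8 of the 20 alternatives. These were the fit with the replicate number as a block (1.41% of all genes called), without WT1 (0.0137%), without WT2, without WT3 (0%), without KO1, with the length and GC correction, with that correction and the block, and the stricter threshold. The log2 fold change was above 0 for 46 of the 63 and below 0 for 17, against 51.8% of all genes above 0. The median was 0.25. Both KO pools lay above every WT pool for 19 genes, against 17.8% of all genes tested, and below for 5, against 18.2%.

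Lists of neighbouring processes gave a scale for these values. Of 25 kinetochore and spindle genes 15 were called higher, against 1.53% of all genes, and the median log2 fold change was 1.39. Both KO pools exceeded every WT pool in 24, against 17.8% of all genes. Their 2 most abundant genes, Cenpa and Plk1, had log2 fold changes of 0.66 and 1.02 and were not called. Of 32 DNA replication genes 2 were called higher, against the same 1.53%, with a median of 0.61. In 16 both KO pools exceeded every WT pool, against the same 17.8%. Pcna and Rrm2, the most abundant of this list, had 0.86 and 0.83 and were not called. In KO2 alone, the median log2 CPM against the Charme WT mean was 1.05 for the kinetochore and spindle list, 0.40 for the proliferation-linked repair genes and 0.22 for DNA replication. The difference between these lists was not tested.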

How the data were processed

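RNA-seq was made from pooled PN2 hearts with a stranded polyA kit. Per the study's methods, the authors trimmed 150-nucleotide paired reads with Cutadapt and Trimmomatic, discarded reads under 35 nucleotides, mapped the rest to GRCm38 with STAR and used its gene counting on the Ensembl annotation, release 87. The deposited counts are raw whole numbers, with 16721055 to 21646378 per pool. The reads carry no molecular identifiers, so limits cover counting error only. A deposited FPKM table, written with decimal commas, was used only as an alternative source for the FPKM filter.

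Samples were grouped by genotype from the labels. In R 4.3.3, the 14880 genes that reached 10 counts in 2 or more pools were normalized by TMM and tested with the quasi-likelihood test of edgeR 4.0.16 (its newer form) for genotype, with Benjamini-Hochberg adjustment. Calls needed an adjusted p under 0.1 and, in mean, at least 1 FPKM in either genotype. The filter, normalization and threshold are those of the study, whose methods name the likelihood ratio test. FPKM used exon lengths of GENCODE M21, matched to 49411 genes. Log2 values per pool used a prior count of 2. With 3 against 2 pools an exact permutation test cannot go below p = 0.1, so none was run. Per the study's methods, pools joined hearts of neonatal littermates by genotype. No source ties a pool to a litter, so p-values measure the spread between pools, and in fits that leave 1 KO pool that between WT pools alone.

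Alternatives were the likelihood ratio test, DESeq2 1.42.0, edgeR's quasi-likelihood test in its legacy form and with robust fitting, upper-quartile and RLE scaling, filterByExpr or no filter on counts, calls without the FPKM filter or at an adjusted p under 0.05, a block for the replicate number, a spline correction (4 degrees of freedom) for gene length and GC content, both together, a fit without mitochondrial and salivary genes, and each pool left out.

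Members, classes and lists were chosen with earlier results of these data known. All members may be named, and in detail those called, the 3 most abundant and those with the highest and lowest fold change of each class. Of the further pathway genes the called ones are named, and of other lists the 2 most abundant. Promoter windows came from a RefSeq table.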

Additional observations from a re-analysis of the deposited data

How the results depend on the processing

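Under the 20 alternatives, 629 of 680 member values kept their direction and their side of the threshold, 26 passed it under 4 settings and 25 changed sign. Members called, 0 as planned, were 4 with the likelihood ratio test, 5 with DESeq2, 1 with the length and GC correction and 0 to 16 with a pool left out, all of them proliferation-linked except that 3 of the 16 were sensors (0 to 13 and 0 to 3 by class), and 0 elsewhere. Further pathway genes called, 2 as planned, were 5 with the likelihood ratio test and with DESeq2, 1 with the length and GC correction (neither of the 2), 0 at an adjusted p under 0.05, 0 with the replicate block, 0 with the block and that correction, and 0 to 31 with a pool left out. All genes called, 305 as planned, were 933 with the likelihood ratio test, 1122 with DESeq2, 111 at an adjusted p under 0.05, 29 with the block and the correction, and with a pool left out 2 without WT1, 187 without WT2, 0 without WT3, 639 without KO1 and 4607 without KO2 (edgeR quasi-likelihood test where no other is named). With a pool left out, the median log2 fold change was 0.39 to 1.012 for proliferation-linked genes, -0.0552 to 0.57 for sensors and -0.0336 to 0.098 for other repair genes. The sensor median was 0.00447 with the block and the correction, and that of the proliferation-linked genes under this setting is not given here. In the 100 bases before the start, 6.9% of member windows held an E2F core (3.16% of all promoters, 5.33% for genes tested) and 0% a CHR core (5.77% and 3.19%), so most of the difference in E2F cores seen over the whole window was not present there. The causes were not tested.

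The labels give no litter or batch behind the replicate numbers, 2 of which are shared, and the deviations correlated by 0.137 for number 1 and 0.0778 for number 2. With 2 KO pools the deviations of KO1 and KO2 mirror each other, so these values are not independent and cannot decide on a pairing. The unmatched WT3 and KO2 gave 0.0587. The replicate block gave 0 members and 210 genes called, and medians of 0.67 and 0.31 for proliferation-linked genes and sensors.

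Sign changes concerned 13 members, none called on either side, and the largest was Atm. With the block, Rad52 was 0.0676 and Xrcc3 -0.0787. Xrcc3 was -0.0159 with no count filter. With the length and GC correction Fancc was 0.0631, Timeless 0.0615, Rad50 -0.0590, Mre11a -0.0566 and Mus81 0.0476. With the block and the correction Fancc was 0.0615, Fancg 0.0625, Fancl -0.0494, Fancm -0.0738, Timeless 0.11, Rad50 -0.0569 and Mre11a -0.10. With a pool left out, the ranges were -0.11 to 0.87 for Bard1, -0.22 to 0.0683 for Rad52, -0.21 to 0.18 for Xrcc3, -0.50 to 0.098 for Fancg, -0.20 to 0.34 for Fancm, -0.32 to 0.77 for Atm, -0.0552 to 0.82 for Atr and -0.14 to 0.22 for Mre11a.

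Depth limits the rarest members most, since Palb2 and Rad54b had as few as 24 and 28 counts in a pool.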

Other observations

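End joining, the repair route that does not use a sister copy, was read from a list of 10 genes, all tested. Its median log2 fold change was 0.15, 8 were above 0, and both KO pools lay above every WT pool for 2, against 17.8% of all genes. By edgeR's quasi-likelihood test 0 were called and 0 had an unadjusted p under 0.05, and the likelihood ratio test and DESeq2 also called 0. Paxx and Xrcc5, the most abundant, had log2 fold changes of -0.11 and 0.28.

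Targets of p53, which many forms of DNA damage induce, were read from a list of 20. Their median log2 fold change was -0.02, with 9 above 0 and 11 below, against 51.8% of all genes above 0. By edgeR's quasi-likelihood test 0 were called and 2 had an unadjusted p under 0.05, against 18.6% of all genes. The likelihood ratio test and DESeq2 called 1 higher and 1 lower each, where 3.92% and 4.8% of all genes were called higher. Both KO pools lay above Charme WT for 1 gene and below for 3, against 17.8% and 18.2% of all genes tested. The 2 genes at the ends of the list, named after their values were seen, were Cdkn1a, an inhibitor of cell cycle kinases, and Gadd45a, a stress response gene. Cdkn1a had 9.79, 7.52 and 6.90 FPKM in Charme WT and 15.1 and 12.5 FPKM in Charme KO, a log2 fold change of 0.77 (edgeR quasi-likelihood adjusted p = 0.133). Gadd45a had 3.61, 4.56 and 4.56 FPKM in Charme WT and 2.01 and 2.19 FPKM in Charme KO, a log2 fold change of -1.01 (edgeR quasi-likelihood adjusted p = 0.137). The most abundant targets, Ccng1 and Phlda3, had 0.45 and 0.10.

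Among the further pathway genes, Parpbp and Polq, named after their values were seen, had log2 fold changes of 1.42 and 1.58 (edgeR quasi-likelihood adjusted p = 0.102 and 0.114), with both KO pools above every WT pool. Polq, the polymerase of microhomology-mediated joining, had 0.261, 0.169 and 0.282 FPKM in Charme WT and 1.02 and 0.440 FPKM in Charme KO. Faap100, a subunit of the Fanconi core complex, had the lowest value of that list, -0.68, at 7.53, 9.71 and 8.18 FPKM in Charme WT and 3.68 and 6.87 FPKM in Charme KO, with no overlap (edgeR quasi-likelihood adjusted p = 0.231).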
